A study of Mus musculus with 6 samples.

Results

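Toll-like receptors are the membrane receptors with which myeloid cells recognise microbial molecules, and 10 genes of this system were followed: Tlr1, Tlr2, Tlr4, Tlr6, Tlr7, Tlr8, Tlr9 and Tlr13, the co-receptor Cd14 and the adaptor Myd88. They were taken by symbol from a table of 54532 genes, where each of the 10 had a single entry. All 10 passed the expression filter used for testing (at least 1 FPKM in at least 3 libraries). FPKM is the number of fragments scaled to transcript length and to a library size, and how the authors set that size is not given. The libraries came from CD11b+ cells of mouse tibial bone marrow, taken at 12 weeks of age by positive magnetic selection. CD11b, the integrin chain encoded by Itgam, is carried by neutrophils, monocytes and macrophages. One group was Tshr+/+ (3 libraries, labelled wild type), and the other was Tshr-/- (3 libraries), which lacks the receptor for thyroid-stimulating hormone according to the sample titles. Another label of the second group calls its genotype a Tshr knockdown, and its columns are headed HO, read here as homozygous. The allele, strain and sex were not given in the labels. A treatment field reads osteoclast differentiation in both groups while the time field reads none, and no culture step is described. The series title names thyroid-stimulating hormone, osteoporosis and AMPK signalling in osteoclasts, the bone-resorbing cells that develop from marrow myeloid precursors.

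Each Toll-like receptor binds its ligand through an ectodomain of leucine-rich repeats and signals through a cytoplasmic TIR domain. TLR2, in pairs with TLR1 or TLR6, recognises bacterial lipopeptides at the cell surface, and TLR4 with MD-2 (gene Ly96) recognises lipopolysaccharide that CD14 has delivered. TLR7, TLR8, TLR9 and TLR13 sit in endosomes, reach them with the chaperone UNC93B1, and bind nucleic acids. All of these receptors recruit MyD88, which assembles IRAK kinases and TRAF6 to activate NF-κB, MAP kinases and interferon regulatory factors; in the marrow, such signals act on myeloid output and on osteoclast precursors.

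The libraries held between 14698126 and 17976477 fragments recovered from the deposited values. Tshr, the targeted gene, was detected at 0.405 to 0.552 FPKM in the Tshr+/+ libraries, while those labelled Tshr-/- 1, 2 and 3 had 0.414, 0.297 and 0.00825 FPKM. It was thus close to absent in only 1 of the 3, and every direction below is a direction between labels. Itgam, named after its values were seen, stood at 87.4 to 134 FPKM in the 6 libraries. The library numbered 3 stood apart in both groups: 9 of 10 monocyte markers were highest in library 3 of both groups, beside 22.0% of the 10913 genes tested. Of the genes tested, 24.2% were lowest in it in both groups. Results are therefore given with and without these libraries where they rest on them. In such bulk samples, fewer cells of a type and less RNA per cell cannot be told apart.

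The 10 genes spanned more than 2 orders of magnitude in level per transcript length. Averaged over the 6 libraries, the order in FPKM was Cd14, Tlr2, Tlr13, Myd88, Tlr6, Tlr8, Tlr7, Tlr4, Tlr9 and Tlr1. Cd14 lay at the 99.5th percentile of the mean FPKM of the genes tested, Tlr2 at the 97.0th, Tlr13 at the 90.6th, and Tlr1, at the bottom, at the 16.9th. Of the 9 neighbouring pairs in this order, 5 were ordered the same way in 6 of 6 libraries: Cd14 above Tlr2 (4.21-fold between the means), Tlr2 above Tlr13 (3.15-fold), Myd88 above Tlr6 (4.17-fold), Tlr7 above Tlr4 (1.55-fold) and Tlr4 above Tlr9 (1.68-fold). Each of these 5 gave a two-sided exact sign-flip permutation p of 0.03125, the smallest that 6 libraries allow, and 0.0563 after Benjamini-Hochberg adjustment over the 9 pairs, so none passed 0.05 after adjustment. The other 4 pairs, Tlr13 and Myd88, Tlr6 and Tlr8, Tlr8 and Tlr7, and Tlr9 and Tlr1, were ordered in 4 or 5 of 6 libraries. Their order was thus not the same in every library, which does not show that their levels were equal. The neighbours were set by sorting the same values, so these counts describe the libraries only. A high-level pair of surface sensors, Cd14 and Tlr2, thus stood beside a Tlr4 level of a few FPKM.

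**Figure D1:**
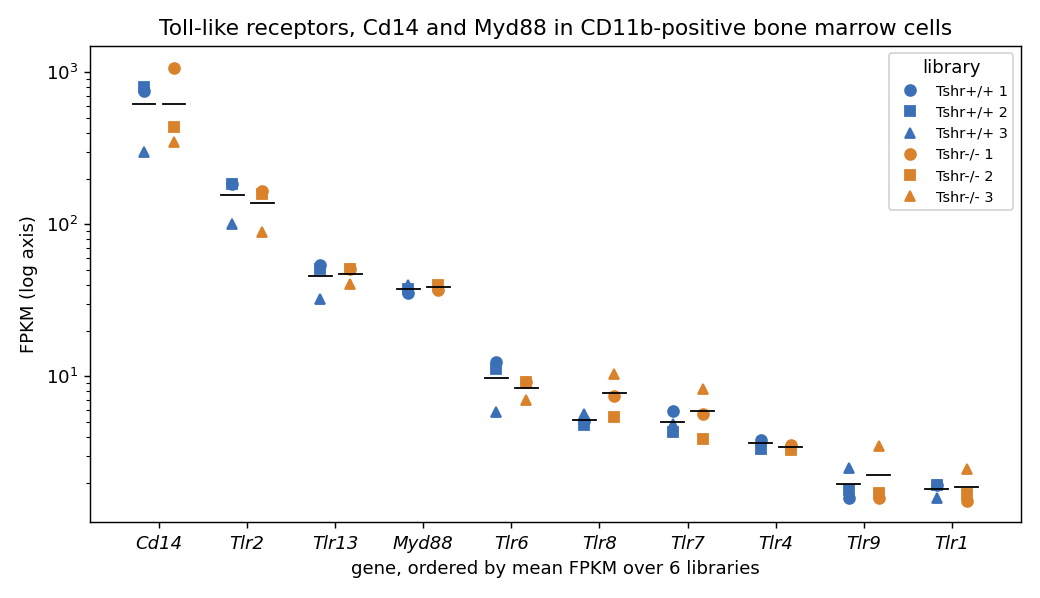
FPKM of the 10 genes in the 6 libraries, on a log axis, with each point a library (colour for the label, shape for the number) and each black bar a group mean. Cd14 stands highest, at 298 to 1073 FPKM, and the groups overlap for every gene.

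Promoter windows show where known regulatory sequences lie beside the genes whose levels are described here. They are the 250 bases before the RefSeq start on build GRCm38.p6, and 7 of the 10 genes were in that table. Both strands were searched for a κB element (GGGA, any base, TT, any base, CC; bound by NF-κB), an interferon-response element (GAAA, any 2 bases, GAAA; bound by IRF factors), the core of a PU.1 element (GAGGAA; PU.1 is the myeloid factor encoded by Spi1) and an AP-1 element (TGANTCA). Over 32851 promoter windows of the same length, these letters occurred in 0.98%, 2.98%, 23.3% and 6.75%. The 4 shown are those of Tlr2, the most abundant receptor, and of Tlr13, Tlr8 and Tlr9, the endosomal receptors that had an entry, each 5′ to 3′ on the gene's strand with matches in capitals. RefSeq starts differ from the gene spans of the deposited table for Tlr2 and Tlr13, so 159 and 71 bases of their windows lie inside those spans and are not printed.
Tlr2: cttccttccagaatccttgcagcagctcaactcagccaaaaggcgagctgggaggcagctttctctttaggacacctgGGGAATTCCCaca
Tlr13: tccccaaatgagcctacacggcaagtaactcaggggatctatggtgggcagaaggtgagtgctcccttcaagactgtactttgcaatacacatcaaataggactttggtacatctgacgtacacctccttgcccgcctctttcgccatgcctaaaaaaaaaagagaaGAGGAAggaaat
Tlr8: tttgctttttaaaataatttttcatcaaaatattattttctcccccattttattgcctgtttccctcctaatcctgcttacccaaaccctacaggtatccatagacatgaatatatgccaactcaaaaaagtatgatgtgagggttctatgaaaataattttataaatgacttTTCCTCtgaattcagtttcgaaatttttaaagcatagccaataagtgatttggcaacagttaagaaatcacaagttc
Tlr9: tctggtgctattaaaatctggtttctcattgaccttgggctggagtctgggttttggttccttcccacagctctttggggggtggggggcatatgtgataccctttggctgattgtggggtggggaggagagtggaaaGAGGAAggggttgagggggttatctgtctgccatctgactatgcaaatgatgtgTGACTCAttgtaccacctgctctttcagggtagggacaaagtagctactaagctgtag
The Tlr2 stretch (chr3:83841768-83841858, minus strand) held a κB match from -172 to -163 relative to the RefSeq start. The stretches of Tlr13 (chrX:106143025-106143203, plus strand) and Tlr8 (chrX:167264330-167264579, minus strand) each held a PU.1 core, from -83 to -78 and from -77 to -72. In the Tlr9 window (chr9:106222348-106222597, plus strand) a PU.1 core lay from -112 to -107 and an AP-1 match from -58 to -52. None of the matches printed overlapped another. A match describes the letters only: binding was not measured.

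Tlr2, the shared partner of the lipopeptide receptors (chromosome 3, 83836272 to 83841767), stood at 184, 183 and 100.2 FPKM in Tshr+/+ libraries 1, 2 and 3, and those labelled Tshr-/- 1, 2 and 3 held 165, 159 and 89.2 FPKM. Library 3 was lowest in each group, at 54.6% and 55.0% of the mean of the other libraries, and the groups overlapped. The means were 156 ± 48.0 and 138 ± 42.2 FPKM (SD, n = 3 each), a log2 fold change of -0.17 ± 0.32 (SE) on the log2(FPKM + 1) scale. Between same-numbered libraries the ratio of Tshr-/- to Tshr+/+ was 0.899, 0.869 and 0.890, the narrowest range of such ratios among the 10 genes.

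Tlr6, which pairs with Tlr2 for diacylated lipopeptides (chromosome 5, 64952031 to 64960097), stood at 12.5, 11.1 and 5.82 FPKM in Tshr+/+ libraries and at 9.14, 9.20 and 6.96 FPKM in those labelled Tshr-/-. Library 3 was again lowest in each group, and the log2 fold change was -0.15 ± 0.27 (SE), or -0.33 without both libraries numbered 3. Tlr1, which pairs with Tlr2 for triacylated lipopeptides (chromosome 5, 64924679 to 64933563), stood at 1.93, 1.93 and 1.58 FPKM and at 1.52, 1.68 and 2.45 FPKM in the same order. Here library 3 was the lowest of the Tshr+/+ group and the highest of the Tshr-/- group, and the log2 fold change was 0.02 ± 0.16 (SE), or -0.17 without both libraries numbered 3. Tlr6 exceeded Tlr1 in every library, by 2.85-fold to 6.48-fold, and Tlr2 exceeded Tlr6 by 12.8-fold to 18.1-fold. Tlr1 and Tlr6 are neighbours on the same strand, 18467 bp apart, and 13.6% of the 50-base stretches of Tlr1 transcripts also occur in Tlr6. How the authors assigned reads that fit both is not given, so the split between these paralogs is uncertain. The Tlr1 values rest on 79 to 165 fragments per library.

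Tlr4, the lipopolysaccharide receptor (chromosome 4, 66827584 to 66930284), was among the steadiest of the 10 genes in the deposited FPKM. It stood at 3.82, 3.35 and 3.74 FPKM in Tshr+/+ libraries and at 3.52, 3.26 and 3.48 FPKM in those labelled Tshr-/-. The highest library was 1.17 times the lowest, and library 3 lay at 104% and 103% of the mean of the others. The log2 fold change was -0.07 ± 0.10 (SE), with a 95% interval from -0.32 to 0.18.

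Cd14, the lipopolysaccharide-binding co-receptor (chromosome 18, 36725074 to 36726736), was the most abundant and the most variable of the 10 genes. It stood at 755, 800.3 and 298 FPKM in Tshr+/+ libraries 1, 2 and 3 and at 1073, 433 and 345 FPKM in those labelled Tshr-/- 1, 2 and 3. The highest and the lowest library differed 3.60-fold, and no ordering by label was seen: the Tshr-/- library was higher in pairs 1 and 3 and lower in pair 2. The group means, 618 ± 278 and 617 ± 397 FPKM (SD, n = 3 each), were nearly equal, and the log2 fold change was -0.06 ± 0.53 (SE), or -0.19 without both libraries numbered 3. The 95% interval of the fold change ran from 0.403 to 2.30, so a change of about that size in either direction was not detectable here, although 8673 to 27141 fragments lay behind each value. Cd14 exceeded Tlr4 by 79.8-fold to 305-fold per library. Ly96, which encodes the TLR4 partner MD-2 and was named after its values were seen, stood at 2.30 to 3.98 FPKM, in the range of Tlr4 and not of Cd14.

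Tlr13, a receptor for bacterial ribosomal RNA (chromosome X, 106143204 to 106160493), was the most abundant endosomal receptor. It stood at 54.3, 50.7 and 32.4 FPKM in Tshr+/+ libraries and at 50.5, 51.1 and 40.8 FPKM in those labelled Tshr-/-. Library 3 was lowest in each group, as for Tlr2 and Cd14, and the log2 fold change was 0.08 ± 0.21 (SE), or -0.047 without both libraries numbered 3.

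Tlr7 and Tlr8, receptors for single-stranded RNA and its breakdown products, lie 40599 bp apart on chromosome X. Tlr7 (167304929 to 167330558) stood at 5.89, 4.33 and 4.87 FPKM in Tshr+/+ libraries and at 5.66, 3.84 and 8.32 FPKM in those labelled Tshr-/-, with a log2 fold change of 0.16 ± 0.24 (SE). Without both libraries numbered 3 it was -0.094. Without the library labelled Tshr-/- 3, the only library of its label with Tshr close to absent, it was -0.079. With that library alone in its group it was 0.63. Tlr8 (167242696 to 167264329) stood at 5.09, 4.76 and 5.62 FPKM in Tshr+/+ libraries and at 7.42, 5.39 and 10.3 FPKM in those labelled Tshr-/-. Tlr8 was the gene with the largest difference in mean log2 level among the 10, and the Tshr-/- library was higher in each numbered pair, by 1.46-fold, 1.13-fold and 1.84-fold. The groups still overlapped, since the library labelled Tshr-/- 2 lay below Tshr+/+ 3. Its means were 5.16 ± 0.434 and 7.72 ± 2.49 FPKM (SD, n = 3 each) and its log2 fold change was 0.46 ± 0.21 (SE), with a limma p of 0.0623 and an adjusted p of 0.9997. Without the library labelled Tshr-/- 3 the log2 fold change was 0.25, and without both libraries numbered 3 it was 0.31. With Tshr-/- 3 alone in its group it was 0.88. For both genes, library number is not balanced between the groups in that setting.

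Tlr9, the receptor for unmethylated CpG DNA (chromosome 9, 106222598 to 106226883), stood at 1.59, 1.79 and 2.49 FPKM in Tshr+/+ libraries and at 1.59, 1.70 and 3.47 FPKM in those labelled Tshr-/-. Library 3 was highest in each group, at 147% and 211% of the mean of the others. Libraries 1 and 2 were almost the same in both groups. The log2 fold change was 0.10 ± 0.24 (SE), and without both libraries numbered 3 it was -0.02.

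Myd88, the adaptor that these receptors share (chromosome 9, 119335934 to 119341411), was the steadiest gene of the 10 in the deposited FPKM. It stood at 35.3, 37.3 and 40.0 FPKM in Tshr+/+ libraries and at 37.1, 39.8 and 38.5 FPKM in those labelled Tshr-/-, so that the highest library was 1.14 times the lowest. The log2 fold change was 0.04 ± 0.10 (SE), and the 95% interval of the fold change ran from 0.871 to 1.21. Myd88 overlaps Slc22a14 on its own strand and Acaa1a on the opposite strand, and whether counting used strand is not given.

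Between the labels, none of the 10 genes passed the test. With limma, 0 of 10 had an adjusted p under 0.05, each adjusted p being 0.9997, and percent called over the 10913 genes tested was 0% as well. At an unadjusted p under 0.05, without a replicate block, the counts were 0 of 10 and 317 of 10913 (2.90%). With the block, Tlr8 had an unadjusted limma p of 0.0222 and an adjusted p of 0.8201. After adjustment, voom on the recovered fragments also called 0. The groups did not overlap for 0 of 10 genes, against 6.77% of the genes tested. Of the 10 log2 fold changes, 6 were above 0 (47.1% of the genes tested) and their median was 0.03, against -0.01 over all genes tested. Without both libraries numbered 3, the median of the 10 was -0.08 and 2 were above 0. In the numbered pairs, 1 of 10 genes (Tlr8) was higher in 3 of 3 pairs, against 12.2% of genes tested, and 2 (Tlr2 and Tlr4) were lower in 3 of 3, against 14.5%.

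**Figure D2:**
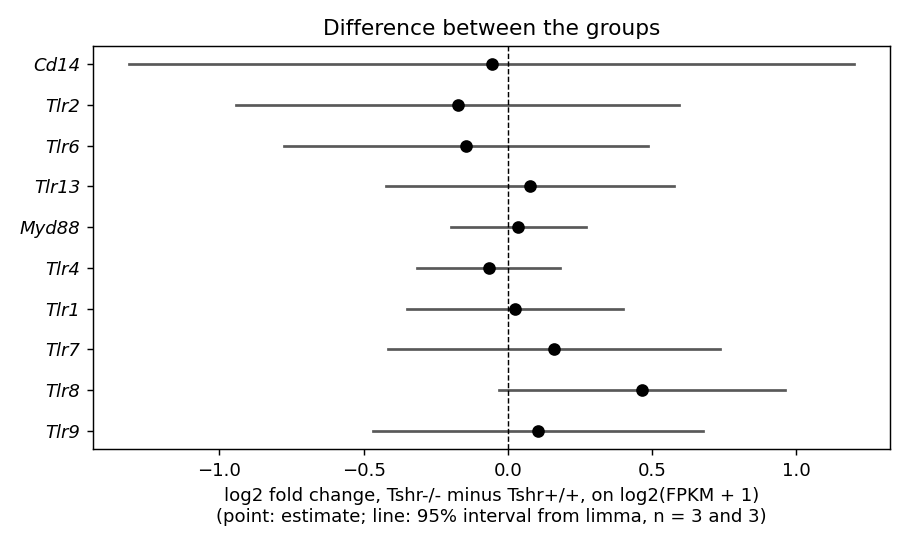
Log2 fold change of each of the 10 genes between the labels (Tshr-/- minus Tshr+/+, log2(FPKM + 1) scale) with its 95% interval from limma. The interval is widest for Cd14, from -1.31 to 1.20, and narrow for Myd88 and Tlr4, and each one spans 0.

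Summed over the 8 receptors, FPKM was 269, 261 and 157 in Tshr+/+ libraries and 245, 235 and 165 in those labelled Tshr-/-. The means were 229 ± 62.6 and 215 ± 43.5 FPKM (SD, n = 3 each), and the two-sided exact permutation test over libraries gave p = 0.6, where 3 libraries against 3 cannot go below 0.1. Without the library labelled Tshr-/- 3 the difference of the sums turned from -14.0 to 10.9 FPKM. Without both libraries numbered 3 it was -25.1 FPKM. With Tshr-/- 3 alone in its group the difference of the sums was -63.9 FPKM. Its low sum was shared by Tshr+/+ 3 (165 and 157 FPKM). Library number is not balanced between the groups in that setting, so its part and that of the label cannot be told apart. Tlr2 alone made up 54.1% to 70.1% of this sum. The endosomal receptors Tlr7, Tlr8, Tlr9 and Tlr13 made up 24.8%, 23.6% and 28.9% in Tshr+/+ libraries and 26.6%, 26.4% and 38.1% in those labelled Tshr-/-. This share was highest in library 3 of each group and higher in Tshr-/- in 3 of 3 numbered pairs. Between the labels it differed by 4.57 percentage points (unpaired exact permutation p = 0.4), or by 0.701 without the library labelled Tshr-/- 3. Without both libraries numbered 3 it differed by 2.27 percentage points. With Tshr-/- 3 alone in its group the share differed by 12.3 percentage points, with the same limit.

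Libraries of the same label differed widely for several of these genes. The library numbered 3 split from the others for some of them, as it did for many of the genes tested. Relative to the mean of libraries 1 and 2 of the same group, library 3 held 38.4% and 45.8% of Cd14 (Tshr+/+ first), 49.2% and 75.9% of Tlr6, and 61.7% and 80.3% of Tlr13. With Tlr2, these were 4 of 10 genes that were lowest in library 3 of both groups, beside 24.2% of the genes tested. Tlr8, at 114% and 161%, and Tlr9 were the 2 of 10 that were highest in library 3 of both groups, beside 22.0% of the genes tested. Myd88 was at 110.4% and 100.2%, so that it and Tlr4 were nearly level in the deposited FPKM. These percentages rest on the deposited scaling. With libraries scaled to equal totals, the SE of the log2 fold change rose from 0.099 to 0.158 for Myd88. For Tlr4 it rose from 0.105 to 0.178. Profiles over the 6 libraries were compared by the root mean square difference of centred log2(FPKM + 1) values. The smallest differences among the 10 were those of Tlr4 and Myd88 (0.104), Tlr6 and Tlr13 (0.137), and Tlr1 and Tlr4 (0.168). Next came Tlr1 and Myd88 (0.173), Tlr2 and Tlr6 (0.174), and Tlr7 and Tlr8 (0.190). Genes that vary little lie close together by this measure whatever their pattern. The spread of Tlr4 itself was 0.063, below its distance to Myd88, so that small distance does not show a shared pattern. The largest difference was that of Tlr9 and Cd14 (0.916).

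**Figure D3:**
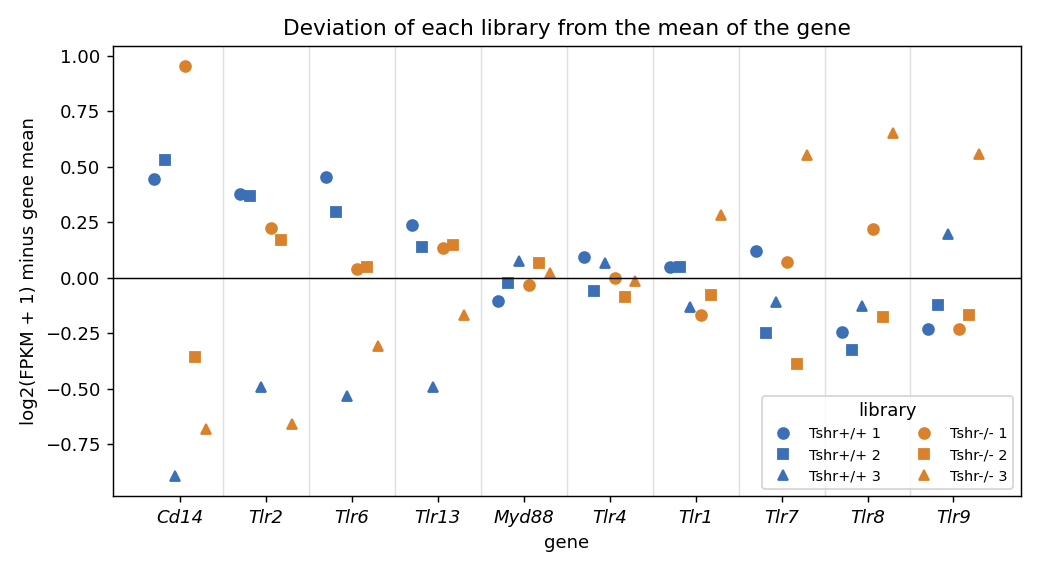
Log2(FPKM + 1) of each library minus the mean of that gene over the 6 libraries (y axis), for the 10 genes (x axis), with colour for the label and shape for the library number. Triangles, library 3, are the lowest of their colour for Cd14, Tlr2, Tlr6 and Tlr13 and the highest of their colour for Tlr8 and Tlr9.

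**Figure D4:**
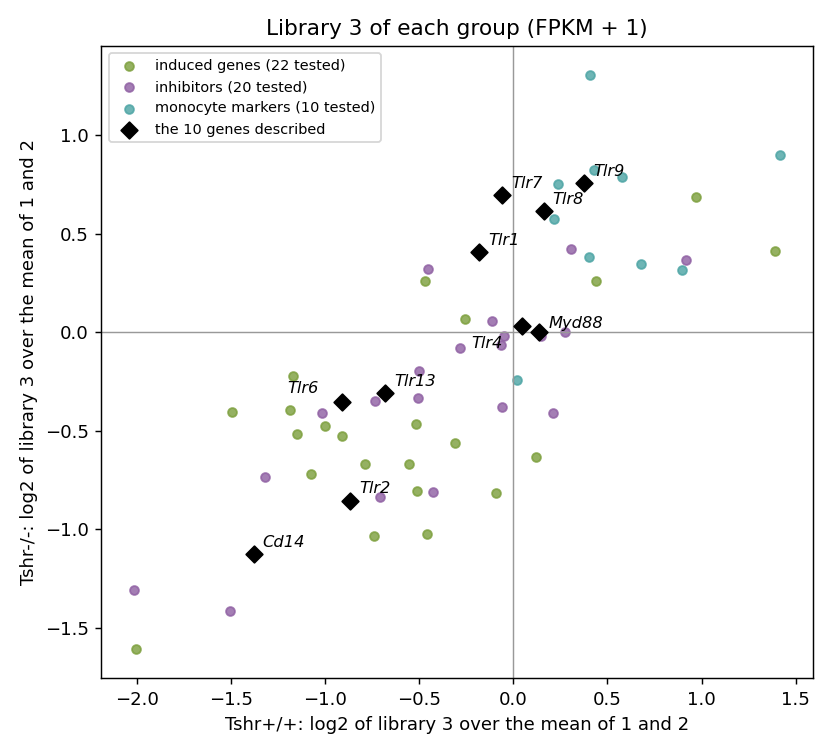
Log2 ratio of library 3 to the mean of libraries 1 and 2 (FPKM + 1) in the Tshr+/+ group (x axis) and in the group labelled Tshr-/- (y axis), with diamonds for the 10 genes and circles for induced genes, inhibitors and monocyte markers. Cd14, Tlr2, Tlr6 and Tlr13 lie below 0 on both axes, Tlr8 and Tlr9 lie above 0 on both, and 14 of 22 induced genes were lowest in library 3 of both groups.

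Monocyte markers moved with this split, and the part of cell types in it was not tested. The 10 monocyte markers (0 of them at 0 in any library) summed to 781 to 934 FPKM in Tshr+/+ libraries and to 792 to 1087 FPKM in those labelled Tshr-/-. Ccr2, which draws monocytes out of marrow, stood at 32.5 and 29.9 FPKM in library 3 of the 2 groups and at 11.4 to 18.4 FPKM in the other libraries (named after its values were seen). The 12 neutrophil markers summed to 116539 to 140606 FPKM and 94180 to 144903 FPKM, and 4 of 12 were lowest in library 3 of both groups, beside 24.2% of the genes tested. The 10 macrophage markers, none at 0, summed to 114 to 150.2 FPKM and 92.9 to 149.8 FPKM, and 5 of 10 were highest in library 3 of both groups, beside 22.0%. The 11 markers of plasmacytoid dendritic cells, which use TLR7 and TLR9, summed to 39.9 to 50.7 FPKM and 49.0 to 56.9 FPKM. Of these 4 passed the filter, all with log2 fold changes above 0 (median 0.26, 0 past the test), beside 47.1% of the genes tested. Of the 4, 2 were higher in Tshr-/- in 3 of 3 pairs, beside 12.2%. In library 3 of both groups 0 of the 4 were highest and 1 was lowest, beside 22.0% and 24.2%. The defining marker Siglech was at 0.0867 to 0.208 FPKM and 0.257 to 0.411 FPKM, and Klk1 and Pacsin1 were at 0 in some libraries (named after their values were seen). The part of these cells in the Tlr7, Tlr8 and Tlr9 levels was not tested. Log2 fold changes were above 0 for 4 of 4 erythroid, 8 of 10 monocyte and 6 of 12 neutrophil markers tested. The counts were 5 of 7 for basophils, mast cells and eosinophils and 2 of 3 for T and NK cells. They were 2 of 10 for macrophages, 1 of 4 for B cells and 0 of 4 for conventional dendritic cells. Xist was at most 0.00553 FPKM and the Y-linked Ddx3y stood at 16.2 to 27.4 FPKM in the 6 libraries (both named after their values were seen).

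Among receptors outside the 10 genes, Tlr5, the flagellin receptor, stood at 1.40, 1.69 and 2.55 FPKM in Tshr+/+ libraries and at 2.80, 3.59 and 1.60 FPKM in those labelled Tshr-/-. It was the only one of 4 other Toll-like receptors to pass the filter, with a log2 fold change of 0.33, and Tlr3, Tlr11 and Tlr12 did not exceed 0.288 FPKM. Of 11 co-receptors and partners, 8 were tested and 0 passed the test in either direction, with 4 above 0, 4 below and a median log2 fold change of 0.02. Cd180, a TLR4 relative on B cells and myeloid cells, gave a log2 fold change of 0.35 ± 0.21 (SE), and the scavenger receptor Cd36 one of -0.35 ± 0.26 (SE). Itgb2, the partner chain of CD11b, was the most abundant, at 590.0 and 573 FPKM in the Tshr+/+ and Tshr-/- means.

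Of 18 genes for receptor transport and endosomal processing, 16 were tested and 0 passed, with 8 above 0 and 8 below and a median of -0.01. Unc93b1, the chaperone of the endosomal receptors, stood at 110.3 to 128 FPKM in the 6 libraries and so varied as little as Myd88 (named after its values were seen). Pld3, an endosomal nuclease, and Lgmn, a protease of the same compartment, had the smallest p values, with log2 fold changes of -0.16 ± 0.12 and -0.20 ± 0.19 (SE). Ctss, an endosomal cathepsin, was the most abundant, at 102 to 213 FPKM.

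Downstream, 0 of 22 tested adaptors and kinases passed the test (of 24 listed), with 9 above 0, 13 below and a median log2 fold change of -0.04. Traf3 and Tbk1, which link these receptors to interferon induction, had log2 fold changes of 0.19 ± 0.11 and -0.19 ± 0.13 (SE). Irak2, a kinase of the MyD88 complex named after its values were seen, stood at 47.6, 46.1 and 12.6 FPKM in Tshr+/+ libraries and at 32.3, 31.4 and 11.8 FPKM in those labelled Tshr-/-. Library 3 was far below the others in both groups, at 26.9% and 37.2% of their mean, whereas Myd88 was nearly level. Pik3ap1, an adaptor that joins TLR signals to PI3-kinase, was the most abundant of this list, with a log2 fold change of -0.48 ± 0.40 (SE).

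All 15 transcription factors listed were tested and 0 passed, with 9 above 0, 6 below and a median of 0.04. Irf7 gave a log2 fold change of 0.37 ± 0.23 (SE) and Spi1, which encodes PU.1, one of -0.11 ± 0.13 (SE). Cebpb, the most abundant, had one of -0.19 ± 0.29 (SE). Of the inhibitors, 20 of 22 were tested and 0 passed, with 14 above 0, 6 below and a median of 0.05. Pirb, an inhibitory receptor, had a log2 fold change of 0.19 ± 0.10 (SE), Tnfaip3, which encodes the ubiquitin-editing enzyme A20, one of 0.36 ± 0.30 (SE), and Dusp1, a MAP kinase phosphatase and the most abundant, one of 0.09 ± 0.28 (SE).

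Of 28 inducible target genes, 22 were tested and 0 passed, with 14 above 0, 8 below and a median of 0.10. The chemokine gene Ccl2 had the smallest p value, with a log2 fold change of 0.56 ± 0.39 (SE), followed at equal p by the chemokine gene Ccl4 (0.34 ± 0.24) and the prostaglandin synthase gene Ptgs2 (0.54 ± 0.38). Lcn2, which encodes a siderophore-binding protein, was the most abundant, at -0.06 ± 0.21 (SE). Of the targets 14 of 22, of the inhibitors 10 of 20 and of the transport genes 1 of 16 were lowest in library 3 of both groups, against 24.2% of the genes tested. Acod1, the itaconate-producing enzyme, stood at 268, 263 and 65.4 FPKM in Tshr+/+ libraries and at 276, 271 and 88.9 FPKM in those labelled Tshr-/-. Nfkbia, which encodes the NF-κB inhibitor IκBα, stood at 353, 416 and 135 FPKM and at 353, 421 and 144 FPKM in the same order. Both were named after their values were seen, and in both, library 3 was far below the other libraries of its group.

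Among innate sensors outside the Toll-like family, the cytosolic nucleic acid sensors lay mostly above 0 without passing the test. Of 11 cytosolic sensors, all tested, 0 passed after adjustment, 9 had log2 fold changes above 0 and the median was 0.33. The groups did not overlap for 5 of 11, each higher in Tshr-/-, against 3.23% of the genes tested. Zbp1, a sensor of left-handed nucleic acid, stood at 6.85, 10.9 and 11.0 FPKM in Tshr+/+ libraries and at 17.5, 14.7 and 13.4 FPKM in those labelled Tshr-/-, with a log2 fold change of 0.63 ± 0.19 (SE), a limma p of 0.0145 and an adjusted p of 0.9997. Ddx58, which encodes the RNA sensor RIG-I, gave a log2 fold change of 0.40 ± 0.13 (SE) and Dhx58, its relative and the most abundant of this list, one of 0.33 ± 0.13 (SE). Of 14 lectin receptors and their signalling chains tested, 0 passed, with 9 above 0 and a median of 0.09. Fcer1g, the signalling chain and the most abundant, gave a log2 fold change of -0.40 ± 0.15 (SE), and Clec4n, which encodes Dectin-2, one of 0.23 ± 0.14 (SE).

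Genes with the profile most like those of Tlr4, Tlr9 and Cd14 were sought among tested genes with a mean of at least 10 FPKM, by root mean square difference of centred log2(FPKM + 1) values over the 6 libraries. For Tlr4 these were Hnrnpf (0.0194), Rbm17 (0.0278) and U2af1 (0.0298). For Tlr9 they were Adcy7 (0.0773), Zfp385a (0.0834) and Kif11 (0.104), and for Cd14 they were Gm24060 (0.217), Rpl17-ps10 (0.268) and Dennd4a (0.297). These distances scale with a gene's own spread, whose root mean square over the 6 libraries was 0.063 for Tlr4, 0.289 for Tlr9 and 0.680 for Cd14.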

How the data were processed

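RNA from CD11b+ tibial marrow cells of 3 Tshr+/+ and 3 Tshr-/- mice was made into SMARTer mRNA-Seq libraries, per the labels' protocols. The authors deposited FPKM values per gene; the builds GRCm38 and mm10 are named in the submitters' processing notes, and the aligner, counter and strand setting were not given in the sources used here. Whole fragments were recovered from the FPKM steps. Of the values above 0 that were checked, 100% lay within 0.01 of a whole number, and the largest values were not checked. Groups came from the sample titles. Each library was read as 1 animal from its title, which the labels do not state further, so p-values measure the spread between these libraries.

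Genes reaching 1 FPKM in 3 or more libraries were fitted on the log2(FPKM + 1) scale with limma 3.58.1 (R 4.3.3; empirical Bayes with a trend, two-sided, Benjamini-Hochberg adjustment over 10913 genes, threshold 0.05) without a replicate block, after tests on simulated data. The 10 genes and the pathway and marker lists were chosen with earlier results of these data known. Named genes were the 10, the 2 of smallest p and the single most abundant one of each pathway list, Tshr and the likeness genes; others are marked. Deviations from the group means correlated between same-numbered libraries at 0.243, 0.262 and 0.468. The numbers were therefore used for the pair counts and for an alternative fit with a replicate block, while the main limma fit leaves them out. This pairing is a hint from the data, since the labels give no shared litter or day and Tshr+/+ 2 with Tshr-/- 1 gave 0.344. Alternatives were another pseudocount, other filters, other scalings, array weights, the block, voom, and left-out libraries; leaving out both libraries numbered 3 was added after seeing the data. Libraries differed by more than sampling noise.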

Additional observations from a re-analysis of the deposited data

How the results depend on the processing

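Under 16 alternatives, 0 of the 10 genes and 0 genes of the pathway lists passed the threshold, Tlr8 stayed above 0 (0.25 to 0.88), and the order of levels was kept where it was recomputed. With the replicate block (pairing by number), 0 genes passed in all, so the block changed no call after adjustment. It did change unadjusted values: the limma p of Tlr8 was 0.0222 with the block and 0.0623 without it. The SE of Tlr2 was 0.085 with the block and 0.32 without it. Over all genes tested, 0 passed in limma, but 24 did with array weights, 18 without both libraries numbered 3 (10 of them higher), and 0 to 2 when 1 library was left out, the 2 without the library labelled Tshr-/- 3. The median log2 fold change of the 10 was -0.077 without both libraries numbered 3. The cause of these shifts was not tested. Small differences changed sign. With array weights, Tlr1 was -0.15, Tlr4 5.1e-05, Tlr9 -0.0046, Tlr13 -0.029 and Cd14 0.21. Without both libraries numbered 3, Tlr1 was -0.17, Tlr7 -0.094, Tlr9 -0.021 and Tlr13 -0.047. Without the libraries labelled Tshr-/- 1 and 2, Tlr13 was -0.13. That setting kept only the library of its label with Tshr close to absent, as 1 library against 3. Library number is not balanced there, so its part and that of the label cannot be told apart. There Tlr1 was 0.295, Tlr2 -0.74, Tlr4 -0.047, Tlr6 -0.38 and Tlr7 0.63. Tlr8 was 0.88, Tlr9 0.61, Cd14 -0.71 and Myd88 0.039. For the genes below 0 there, the Tshr-/- to Tshr+/+ ratio between the libraries numbered 3 was 0.890 for Tlr2 and 0.932 for Tlr4. It was 1.20 for Tlr6, 1.26 for Tlr13 and 1.16 for Cd14. When 1 library was left out, values ran from -0.11 to 0.11 for Tlr1, from -0.46 to 0.11 for Tlr2, from -0.45 to 0.044 for Tlr6, from -0.079 to 0.39 for Tlr7, from -0.15 to 0.25 for Tlr9, from -0.15 to 0.21 for Tlr13, from -0.55 to 0.27 for Cd14 and from -0.0064 to 0.083 for Myd88. The difference in summed FPKM then ran from -50.1 to 10.9, and that in the endosomal share from 0.701 to 6.57 percentage points. Equal totals moved the median of all genes by 0.045 on the log2 scale. Depth limits Tlr1 and Tlr9 most, and 3 libraries a group limit Cd14.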
